A study of Mus musculus with 18 samples.

Results

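The 10 genes described here mark the stem cells at the base of the intestinal crypt or respond to Wnt signalling there: Lgr5, Olfm4, Ascl2, Smoc2, Tnfrsf19, Prom1, Msi1, Axin2, Rnf43 and Sox9. They were chosen by gene name, and all 10 were found among the 37074 gene names of the array. The measurements are one-colour microarray signals of cells isolated from the mouse ileum by chelation, in which the fluorescence of a 60-base DNA probe rises with the amount of its transcript. The RNA is bulk RNA of the pooled cells, although the labels call the samples single cells. There were 18 mice with 1 array each, in 3 groups of 6. The floxed chow group was iPGC1afl/fl on CHOW, with loxP sites around early exons of Ppargc1a and the gene not deleted. The floxed HFD group was iPGC1afl/fl on HFD, and the third group was iPGC1a-/- on HFD, in which Cre driven by the Villin promoter removes those exons in the intestinal epithelium. All mice were C57BL6/J and were 8 weeks old when the diets began. The diets lasted 8 weeks, the HFD held 42% of its kcal as fat with 0.2% cholesterol, and the mice were fasted overnight and killed at zeitgeber time 3. The genotypes were compared on HFD alone, since arrays of iPGC1a-/- mice on CHOW are not analysed here. P-values of the group comparisons rest on the spread between arrays within groups, pooled over all 3 groups. Each comparison thus also uses the spread of the group outside it. The labels give the 6 arrays of a group as separate samples.

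Stem cells at the crypt base divide throughout life and supply the absorptive and secretory cells of the villus. Wnt ligands bind Frizzled and Lrp receptors there, beta-catenin then reaches the nucleus, and Tcf factors switch on target genes. Among these genes, Lgr5 is a receptor for R-spondins, which strengthen the Wnt signal, and Ascl2 is a transcription factor of the stem cell programme, while Axin2 and Rnf43 feed back to weaken the signal.

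Sequences of 2 kinds are shown. The first are probes of Prom1, Axin2, Olfm4, Tnfrsf19, Msi1, Sox9 and Lgr5, since each probe reads a different stretch of its gene. Those of Smoc2, which gave different answers for diet, are not printed. Letters are those of the array files, read 5′ to 3′, with positions on mm9, all in lower case. What the annotation holds at these positions was not used here.
Prom1 brightest probe (chr5:44447181-44447240, minus strand): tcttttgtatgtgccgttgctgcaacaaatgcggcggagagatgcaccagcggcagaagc
Prom1 second probe (chr5:44397410-44397469, minus strand): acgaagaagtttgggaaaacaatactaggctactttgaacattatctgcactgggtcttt
Axin2 second probe (chr11:108803927-108803986, plus strand): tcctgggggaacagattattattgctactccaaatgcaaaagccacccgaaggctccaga
Olfm4 probe (chr14:80421539-80421598, plus strand): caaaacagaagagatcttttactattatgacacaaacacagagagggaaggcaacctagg
Tnfrsf19 brightest probe (chr14:61615452-61615511, minus strand): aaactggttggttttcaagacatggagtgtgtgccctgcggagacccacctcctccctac
Msi1 dimmer probe (chr5:115890516-115890575, plus strand): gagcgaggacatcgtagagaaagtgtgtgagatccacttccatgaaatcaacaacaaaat
Sox9 dimmer probe (chr11:112646642-112646701, plus strand): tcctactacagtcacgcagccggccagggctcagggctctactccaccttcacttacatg
Lgr5 second probe (chr10:114899782-114899841, minus strand): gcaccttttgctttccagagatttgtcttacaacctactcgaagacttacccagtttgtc

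The others are the 250 bases before the transcription start of Axin2, the feedback gene of the set that was lower on HFD, and of the Tnfrsf19 start that holds a Tcf motif. They come from RefSeq on GRCm38.p6, a different build from that of the probes. Windows of 250 bases before and 50 bases after a start were searched on both strands for CTTTGAT, whose reverse complement is ATCAAAG, and the match is in capitals.
Axin2 (chr11:108920099-108920348, plus strand): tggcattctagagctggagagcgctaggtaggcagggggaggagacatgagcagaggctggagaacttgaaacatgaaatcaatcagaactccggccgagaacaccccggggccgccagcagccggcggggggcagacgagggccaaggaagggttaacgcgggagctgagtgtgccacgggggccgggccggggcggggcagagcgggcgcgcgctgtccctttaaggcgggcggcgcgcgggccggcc
Tnfrsf19 (chr14:61037988-61038237, minus strand): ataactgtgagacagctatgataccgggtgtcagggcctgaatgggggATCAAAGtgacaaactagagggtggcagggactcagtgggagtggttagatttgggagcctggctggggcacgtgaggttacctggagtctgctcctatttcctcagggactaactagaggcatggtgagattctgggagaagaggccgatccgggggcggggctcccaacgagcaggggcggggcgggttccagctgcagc
The motif was found in 1 of 9 windows belonging to 6 of the genes, 202 bases before the Tnfrsf19 start, and in 3.73% of all 32851 windows. Lgr5, Smoc2, Sox9 and Msi1 were not matched in this table.

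Ppargc1a, the targeted gene, did not have lower signal in the arrays labelled iPGC1a-/-. Its brightest probe had a log2 mean of 10.94 ± 0.46 (SD, n = 6) in floxed chow, 11.38 ± 0.07 in floxed HFD and 11.67 ± 0.26 in iPGC1a-/- HFD. The other probe of Ppargc1a ends on the stop codon of the protein, and the brightest one lies further downstream, so both read sequence outside the deleted exons and do not check the deletion. The share of spots above background was 56.3% to 62.3% over all arrays, with 59.7% to 61.9% in floxed chow and 56.3% to 61.7% in floxed HFD. On the log2 scale, the 10 villus enterocyte markers had floxed chow means from 12.07 (Slc5a1) to 18.17 (Fabp2). Fabp2 is a fatty acid binding protein of enterocytes. Floxed HFD replicate 1 stood apart in markers of tissue below the epithelium. Its mean level, on the log2 scale relative to the mean of each gene over all arrays, was 1.65 for smooth muscle markers, where the other arrays lay between -0.50 and 0.19, and 0.85 for enteric neuron and glia markers, where the others lay between -0.21 and 0.12. For fibroblast markers it was 0.84, beside 0.82 in floxed chow replicate 2. All 10 crypt genes had a brightest probe well above background on all 18 arrays. Of their 23 probes, 20 passed the filter on dim signal, and the brightest one stands for each gene below.

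In floxed mice, HFD went with lower signal of Prom1 and Axin2 and higher signal of Msi1. These 3 of 10 genes passed the test (limma, adjusted p of 0.05 or lower over all probes), 1 higher and 2 lower. Over all 21542 genes tested the same rule called 24.6%, with 10.4% higher and 14.2% lower, so the share among the crypt genes lay near the background. In this fit, no crypt gene that passed also changed by more than 1.5-fold, a rule met by 8.43% of all genes. The rule was not applied to the background-subtracted signal, where Prom1 was -1.05 (adjusted p = 0.000177 in limma). The median log2 difference was -0.17 over the 10 genes and 0.00 over all genes. In isolated cells measured in bulk, fewer cells of a type and less RNA per cell cannot be told apart.

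Between genotypes on HFD, no crypt gene passed limma's test, while 0.227% of all genes did. At the brightest probes there were 2 at an unadjusted p under 0.05, Ascl2 and Msi1, against 9.29% of all genes. In the comparison of iPGC1a-/- HFD with floxed chow, which uses arrays of both other comparisons, Axin2, Olfm4, Prom1 and Tnfrsf19 were lower, 4 of 10 genes. The background there was 36.8% of all genes, with 20% of all genes lower. Past 1.5-fold in this fit, where the background was 11.8%, there was none among the 10.

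**Figure D1:**
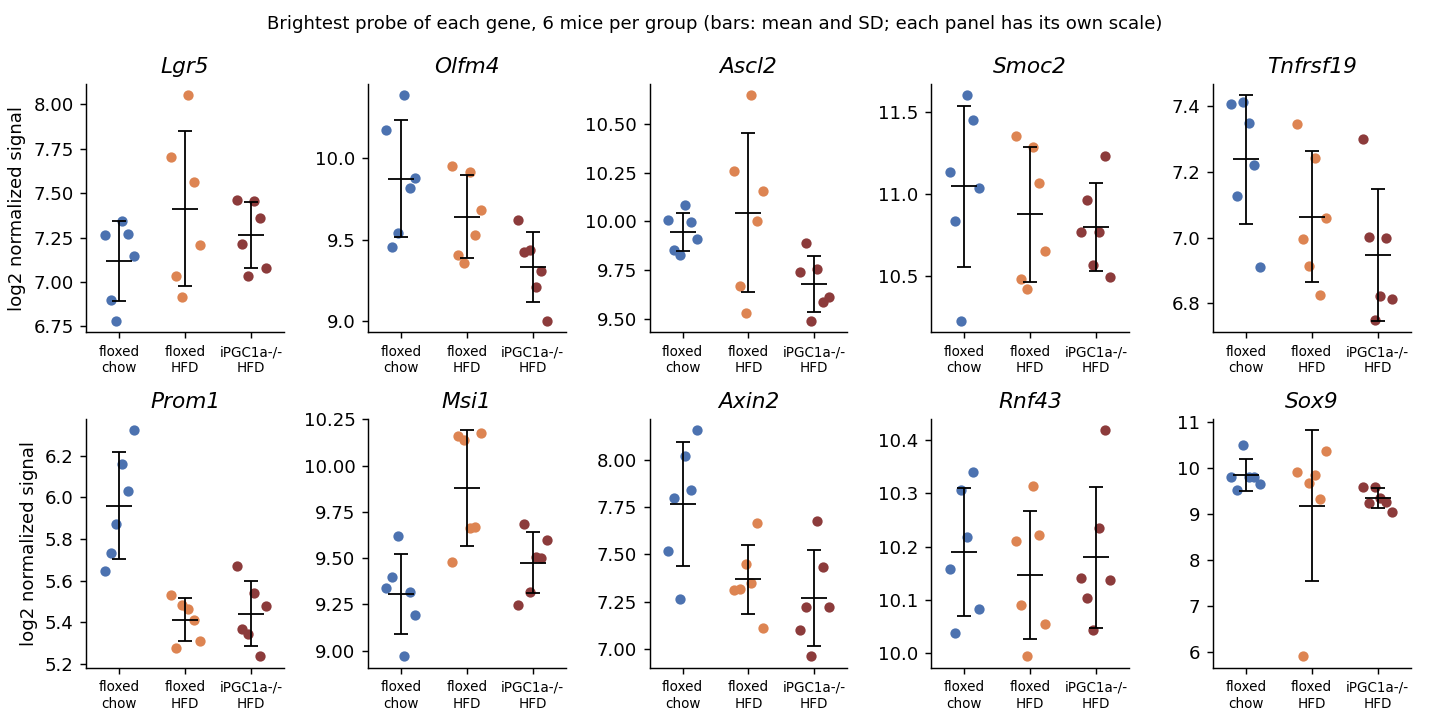
Log2 normalized signal of the brightest probe of each gene (vertical axes, a separate scale in each panel) for 6 mice in each of 3 groups, with mean and SD as bars. All 6 floxed HFD arrays lie below all 6 floxed chow arrays for Prom1, and 1 floxed HFD array lies far below the others for Sox9 at 5.89.

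**Figure D2:**
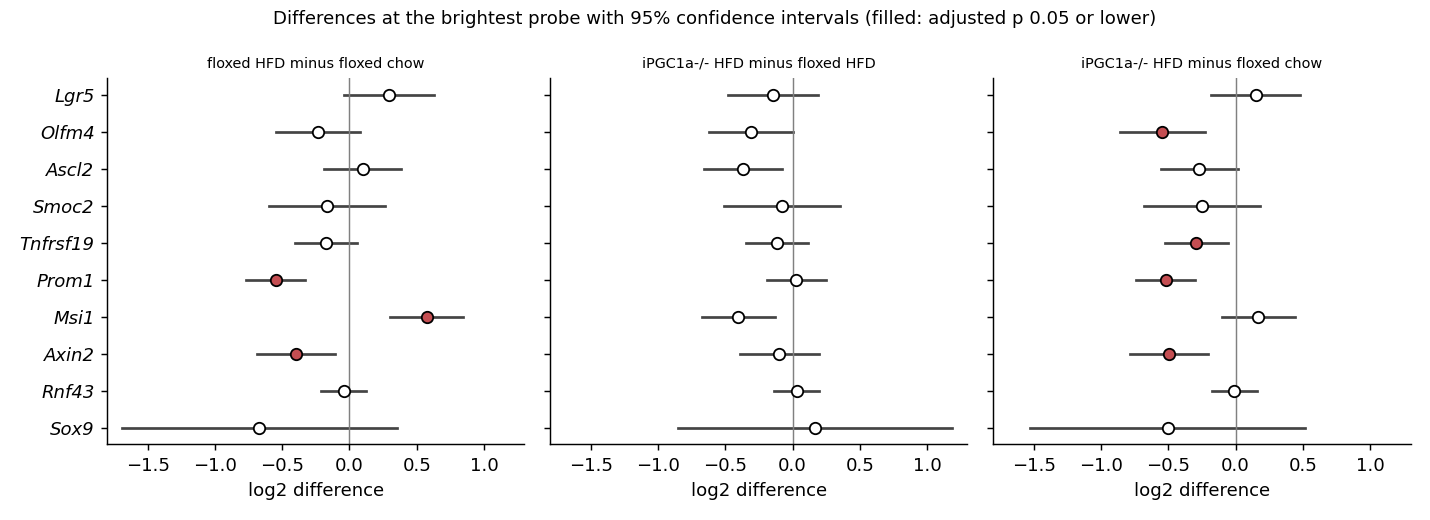
Log2 difference at the brightest probe (points) with its 95% confidence interval (lines) for the 10 genes in the 3 comparisons; filled points have an adjusted p of 0.05 or lower. Prom1, Msi1 and Axin2 are filled for diet, none is filled for genotype, and Olfm4, Tnfrsf19, Prom1 and Axin2 are filled for iPGC1a-/- HFD minus floxed chow.

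Prom1 encodes prominin, a membrane protein of stem and progenitor cells. Its log2 signal ran from 5.65 (median 5.95) to 6.32 in floxed chow, from 5.28 (median 5.44) to 5.53 in floxed HFD, and from 5.24 (median 5.42) to 5.67 in iPGC1a-/- HFD. It was the only crypt gene whose floxed chow and floxed HFD arrays did not overlap, where 10.4% of all genes did not overlap. The diet difference was -0.55 ± 0.10 (SE), a 1.46-fold lower signal, with an adjusted p of 0.000756 in limma. The second probe, printed above, differed by -0.51 with an adjusted p of 0.00385 in limma, although 4 of 6 floxed HFD arrays had it well above background. Another, dimmer probe differed by 0.03. The difference was -0.41, -0.67 and -0.56 within the 3 slides. It was -1.05 with the background-subtracted signal, -0.31 with normexp correction and -0.34 with the probes averaged, so its size depended on these choices. The genotype difference of Prom1 was 0.03, with a 95% confidence interval of -0.19 to 0.25.

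Msi1 encodes Musashi, an RNA-binding protein of stem cells. Its signal ran from 8.97 (median 9.33) to 9.62 in floxed chow, from 9.48 (median 9.90) to 10.17 in floxed HFD, and from 9.25 (median 9.50) to 9.68 in iPGC1a-/- HFD. On HFD, 5 of 6 floxed arrays exceeded every floxed chow array. The diet difference was 0.57 ± 0.13, a 1.49-fold higher signal, with an adjusted p of 0.00313 in limma, and it was 0.43, 0.55 and 0.73 within the slides. The dimmer probe printed above differed by -0.06 and was well above background on 4 of 6 floxed HFD arrays and 1 of 6 iPGC1a-/- arrays, so the rise was seen at the brightest probe alone. With the probes of the gene averaged, the diet difference was 0.26 with an adjusted p of 0.0287 in limma. Between genotypes the difference was -0.40 ± 0.13 (adjusted p = 0.334 in limma), with 2 iPGC1a-/- arrays below every floxed HFD array.

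Axin2 is a scaffold of the beta-catenin destruction complex and a Wnt target that limits the signal. It ran from 7.27 (median 7.82) to 8.15 in floxed chow, from 7.11 (median 7.33) to 7.67 in floxed HFD, and from 6.96 (median 7.22) to 7.68 in iPGC1a-/- HFD. The floxed groups overlapped, with 1 floxed HFD array below all floxed chow arrays. The diet difference was -0.40 ± 0.14 with an adjusted p of 0.0454 in limma, 1.32-fold lower. The call was past the threshold in 7 of 13 alternative fits and in 8 of 18 fits that left out 1 array. It was lost, with an adjusted p of 0.0501 to 0.118 in limma, without floxed chow replicates 2, 4, 5 or 6, floxed HFD replicates 1, 2, 3 or 6, or iPGC1a-/- replicates 1 or 2. Within the slides the difference was 0.10, -0.62 and -0.68. The second probe differed by -0.16 for diet (adjusted p = 0.178 in limma). Against floxed chow, iPGC1a-/- HFD was lower by both probes, by -0.50 (adjusted p = 0.00953 in limma) and -0.40 (adjusted p = 0.00128 in limma). The genotype difference was -0.10 at the brightest probe and -0.24 at the second (adjusted p = 0.849 and 0.405 in limma).

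Olfm4 encodes olfactomedin, a secreted protein that marks crypt base stem cells. Its single probe ran from 9.46 (median 9.85) to 10.39 in floxed chow, from 9.36 (median 9.61) to 9.96 in floxed HFD, and from 9.00 (median 9.36) to 9.62 in iPGC1a-/- HFD. Neither step alone passed the test, with -0.23 for diet (95% confidence interval -0.55 to 0.08) and -0.31 for genotype (-0.62 to 0.00). From floxed chow to iPGC1a-/- HFD the signal was lower by -0.54 ± 0.15, with an adjusted p of 0.00831 in limma, and 5 of 6 iPGC1a-/- arrays lay below every floxed chow array.

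Lgr5 ran from 6.78 (median 7.20) to 7.34 in floxed chow, from 6.91 (median 7.39) to 8.05 in floxed HFD, and from 7.03 (median 7.29) to 7.46 in iPGC1a-/- HFD. On HFD, 3 of 6 floxed arrays exceeded every floxed chow array, while the other 3 did not. The diet difference was 0.29 ± 0.16 (adjusted p = 0.194 in limma) and the genotype difference -0.15 (95% confidence interval -0.48 to 0.19). The second probe differed by 0.18 and -0.30. The 3 high floxed HFD arrays, replicates 1, 4 and 5, had 60.6%, 61.7% and 59.6% of spots well above background, and the others 56.3% to 57.0%. Without replicate 1, which stood apart in smooth muscle markers, the diet difference of Lgr5 was 0.22 (adjusted p = 0.36 in limma). With this share as a covariate, an alternative added after the data were seen, the diet difference of Lgr5 was 0.54 with an adjusted p of 0.0171 in limma, and that of Axin2 was -0.25 with an adjusted p of 0.287. The part of the share in these results was not tested.

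Ascl2 ran from 9.83 (median 9.95) to 10.08 in floxed chow, from 9.53 (median 10.08) to 10.65 in floxed HFD, and from 9.49 (median 9.67) to 9.89 in iPGC1a-/- HFD. The floxed HFD arrays were the most spread, with an SD of 0.41 against 0.10 in floxed chow. The genotype difference was -0.37 ± 0.14 (adjusted p = 0.422 in limma), and within the slides it was -0.10, -0.21 and -0.79. The diet difference was 0.10. The difference between iPGC1a-/- HFD and floxed chow was -0.27 (adjusted p = 0.137 in limma), and 5 of 6 iPGC1a-/- arrays lay below every floxed chow array. With only these groups in the fit it was -0.26 (adjusted p = 0.0253 in limma).

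Smoc2 encodes a secreted matrix protein of crypt base cells. Its brightest probe ran from 10.23 (median 11.08) to 11.60 in floxed chow, from 10.42 (median 10.86) to 11.35 in floxed HFD, and from 10.49 (median 10.77) to 11.23 in iPGC1a-/- HFD. The groups overlapped widely at this probe, and its diet difference was -0.17 (adjusted p = 0.593 in limma). The other probes differed by -0.22 and -0.67, and the dimmest alone passed, with an adjusted p of 0.000596 in limma. With the 3 probes averaged, Smoc2 passed for diet at -0.35 (adjusted p = 0.0365 in limma). Between genotypes its probes differed by -0.08, -0.29 and -0.11 from brightest to dimmest (adjusted p = 0.926, 0.505 and 0.809 in limma). Between iPGC1a-/- HFD and floxed chow the brightest probe differed by -0.25 (adjusted p = 0.368 in limma), the other probes by -0.51 (adjusted p = 0.00522 in limma) and -0.78 (adjusted p = 9.85e-05 in limma), and their average by -0.51 (adjusted p = 0.00271 in limma). Tnfrsf19, a receptor also called Troy that marks crypt stem cells, ran from 6.91 (median 7.29) to 7.41 in floxed chow, from 6.82 (median 7.03) to 7.35 in floxed HFD, and from 6.75 (median 6.91) to 7.30 in iPGC1a-/- HFD. For diet its brightest and second probes differed by -0.17 and -0.40 (adjusted p = 0.276 and 0.0561 in limma). For genotype they differed by -0.12 and -0.35 (adjusted p = 0.762 and 0.477 in limma). Between floxed chow and iPGC1a-/- HFD Tnfrsf19 differed by -0.29 (adjusted p = 0.0484 in limma) at the brightest probe and by -0.74 (adjusted p = 0.00064 in limma) at the second. The call at the brightest probe was past the threshold in 5 of 13 alternative fits and in 6 of 18 fits without 1 array, and was lost without floxed chow replicates 1 to 5, floxed HFD replicates 2, 3 or 6, or iPGC1a-/- replicates 2, 3, 4 or 6, at an adjusted p of 0.0513 to 0.112 in limma.

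Rnf43 encodes a ubiquitin ligase that removes Frizzled receptors from the membrane. Its groups overlapped almost fully, from 10.04 (median 10.19) to 10.34 in floxed chow, from 9.99 (median 10.15) to 10.31 in floxed HFD, and from 10.04 (median 10.14) to 10.42 in iPGC1a-/- HFD. The diet difference was -0.04, with a 95% confidence interval of -0.21 to 0.12. Sox9, a transcription factor of crypt progenitors and Paneth cells, ran from 9.52 (median 9.79) to 10.50 in floxed chow, from 5.89 (median 9.77) to 10.37 in floxed HFD, and from 9.05 (median 9.29) to 9.59 in iPGC1a-/- HFD. The value of 5.89 was that of floxed HFD replicate 2, and the dimmer probe of Sox9 lay between 7.29 and 7.97 in that group. Without that array the genotype difference of Sox9 was -0.49 (adjusted p = 0.455 in limma) where it was 0.17 with it. The difference between iPGC1a-/- HFD and floxed chow was then -0.50 with an adjusted p of 0.0241 in limma, where it was 0.444 with the array kept. With only these groups in the fit, so without floxed HFD, it was -0.50 (adjusted p = 0.0163 in limma). At the dimmer probe, with all arrays kept, this difference was -0.15 (adjusted p = 0.292 in limma). The diet and genotype differences of the dimmer probe were 0.01 and -0.17 (adjusted p = 0.946 and 0.643 in limma).

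**Figure D3:**
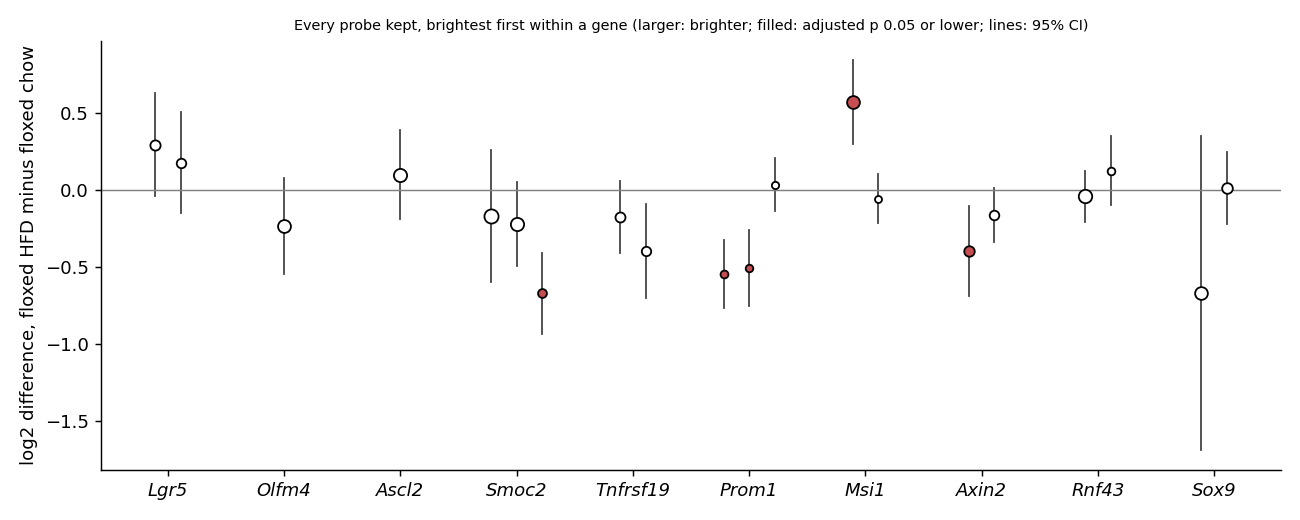
Diet difference (floxed HFD minus floxed chow, log2) of every probe that passed the filter, with 95% confidence intervals; larger points are brighter probes and filled points have an adjusted p of 0.05 or lower. Probes of Smoc2, Msi1 and Prom1 differ within a gene: the Msi1 probes are at 0.57 and -0.06.

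Over the 18 arrays pooled, with group means subtracted, Lgr5, Olfm4, Ascl2 and Smoc2 moved together. Pearson's r was computed for 45 pairs, with permutation p-values within groups and Benjamini-Hochberg adjustment over the pairs. It was not computed within single groups, which differed in spread. Lgr5 and Ascl2 were most spread in floxed HFD (SD 0.44 and 0.41), and Olfm4 and Smoc2 in floxed chow (SD 0.36 and 0.49). Lgr5 and Ascl2 had r = 0.85 (rho = 0.81, permutation adjusted p = 0.00832 and 0.0232), and 0.68 without the 2 arrays farthest from the median of Lgr5. Lgr5 and Smoc2 had r = 0.83 (rho = 0.83, permutation adjusted p = 0.00315 and 0.0175), and 0.84 without such arrays. The 6 pairs among Lgr5, Olfm4, Ascl2 and Smoc2 had r between 0.62 and 0.85, and they were the 6 positive pairs that passed. Over 21468 genes, the 99th percentile of r to Lgr5 or to Olfm4 was 0.81. Of the pairs with Lgr5 or Olfm4, only those of Lgr5 with Ascl2 and with Smoc2 exceeded it. Msi1 ran opposite to all 9 others, with r from -0.75 to -0.24, and passed with Lgr5, Smoc2 and Olfm4. The Lgr5 and Msi1 pair had r = -0.75 (rho = -0.80, permutation adjusted p = 0.0271 and 0.0243), which was -0.75 without the 2 farthest arrays. The share of spots well above background moved with Smoc2 (r = 0.63, permutation adjusted p = 0.0534) and Lgr5 (r = 0.64, permutation adjusted p = 0.0616), 10 genes being compared, and its part in the pairs was not tested. Without floxed HFD replicate 1, left out here after the data were seen, the pairs among Lgr5, Olfm4, Ascl2 and Smoc2 had r between 0.59 and 0.84, and Lgr5 and Msi1 had r = -0.73. Some marker lists moved with the same split of the floxed HFD arrays, a split read from Lgr5 and Msi1 on these arrays. On replicates 2, 3 and 6, where Msi1 was high and Lgr5 low, tuft cell markers had mean levels of 0.62, 0.60 and 0.86 relative to the mean of all arrays, and on replicates 1, 4 and 5 they had -0.49, -0.24 and -0.41. Goblet cell markers ran the other way, at -0.58, -0.66 and -0.87 on the former arrays and 0.27, 0.03 and -0.10 on the latter, and so did proliferation genes, at -0.48, -0.53 and -0.29 against 0.03, 0.19 and -0.04. B cell markers did not follow the split, at -1.40, -1.24 and -0.11 on the former arrays and -0.59, -1.31 and 0.76 on the latter. In floxed chow, replicate 3 had the highest Msi1 and the lowest Lgr5, with tuft cell markers at -0.17. The part of these cells in the pairs was not tested.

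**Figure D4:**
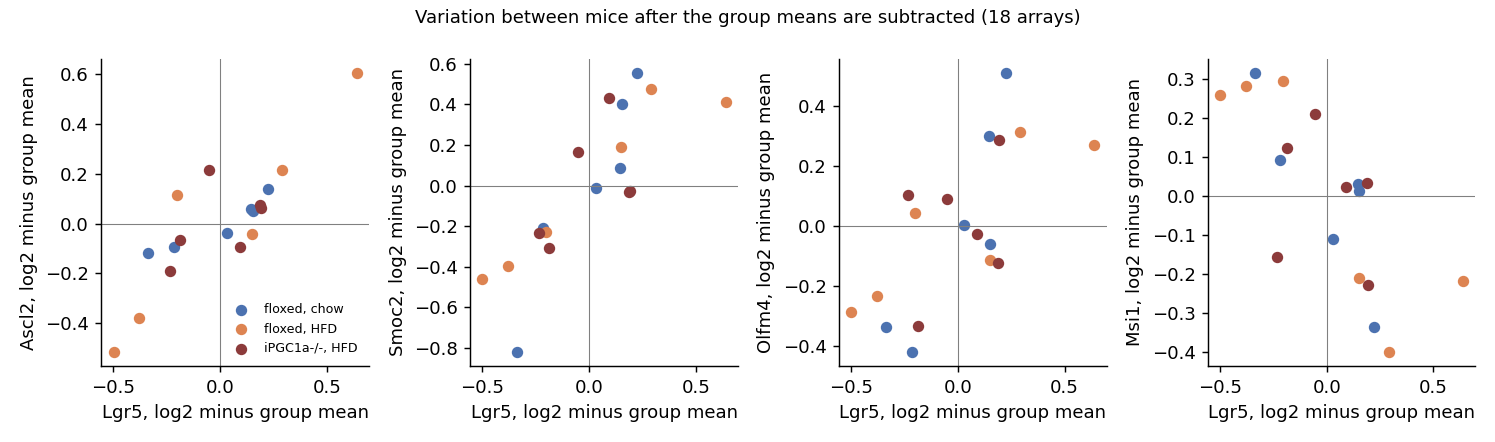
Log2 signal minus the group mean for Lgr5 (horizontal axes) against Ascl2, Smoc2, Olfm4 and Msi1 (vertical axes), 1 point per array over 18 arrays, coloured by group. The points rise for the first 3 genes (r = 0.85, 0.83 and 0.69) and fall for Msi1 (r = -0.75).

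Over the same arrays the genes most like Lgr5 were Tmem191c (r = 0.94), Zfp704 (0.93) and Ssbp1 (0.93), and those most like Olfm4 were Rbm38 (0.95), Ephb4 (0.93) and Hsd17b10 (0.93), out of 21468 genes. The 99th percentile of r to either gene was 0.81.

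The rest of the pathway was read by lists. Of 15 Wnt ligands and secreted modulators, 8 were tested and 3 were higher on HFD in floxed mice, none lower, beside 10.4% of all genes called higher and 14.2% called lower. These were Sfrp5, a secreted Frizzled-like inhibitor (log2 difference 1.29), the ligand Wnt6 (0.89) and Notum, an enzyme that inactivates Wnt proteins (0.58). Of 21 receptors, transducers and transcription factors tested, Fzd1 was higher (0.34) and 4 were lower, among them the transcription factors Tcf7 (-0.62) and Tcf7l2 (-0.58) and the coactivator Bcl9 (-0.57). These 5 of 21 genes lay near the 24.6% of all genes called in either direction. Of 11 other Wnt targets tested, 2 were higher, Apcdd1, a membrane inhibitor of the pathway (1.31), and Notum. The 5 lower targets were led by the cell cycle gene Ccnd1 (-0.91), the transcription factor Myc (-0.78) and the adhesion molecule Cd44 (-0.67), beside the same shares of all genes. The ligand list had a median of 0.07, the receptor list 0.00 and the target list -0.19, beside 0.00 over all genes.

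Of 20 other genes of the Lgr5 stem cell signature, 2 were higher on HFD, Nrn1 (0.74) and Gkn3 (0.67), and 1 was lower, Cdca7 (-0.52), with a list median of -0.08. These 3 of 20 genes were a smaller share than the 24.6% of all genes called. Of 6 reserve and label-retaining cell genes, 3 were lower: Ly6a, a surface protein that lymphocytes also carry (-2.04), Bmi1 (-0.53) and Lrig1, which restrains growth factor receptors (-0.44). Of 10 Notch pathway genes tested, 3 were lower, Mfng (-1.46), Atoh1, the factor of secretory fate (-0.72), and the receptor Notch2 (-0.54). The reserve and Notch counts stand beside 14.2% of all genes called lower. In each of these lists, as in those of Wnt genes, 0 genes passed limma's test between genotypes.

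Proliferation genes were lower on HFD. Of 16 tested, 12 fell and none rose, with a median log2 difference of -0.55, beside 14.2% of all genes called lower. They included Rrm2, which makes deoxynucleotides (-0.83), and the cyclins Ccnb1 (-0.74) and Ccna2 (-0.72). Between iPGC1a-/- HFD and floxed chow 11 were lower, beside 20% of all genes, and between genotypes none passed limma's test. Past 1.5-fold there were 7 lower for diet, beside 5.2% of all genes. With the share of spots well above background as a covariate, 3 passed for diet, without the 1.5-fold rule. The share of all genes called in that fit was not counted.

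**Figure D5:**
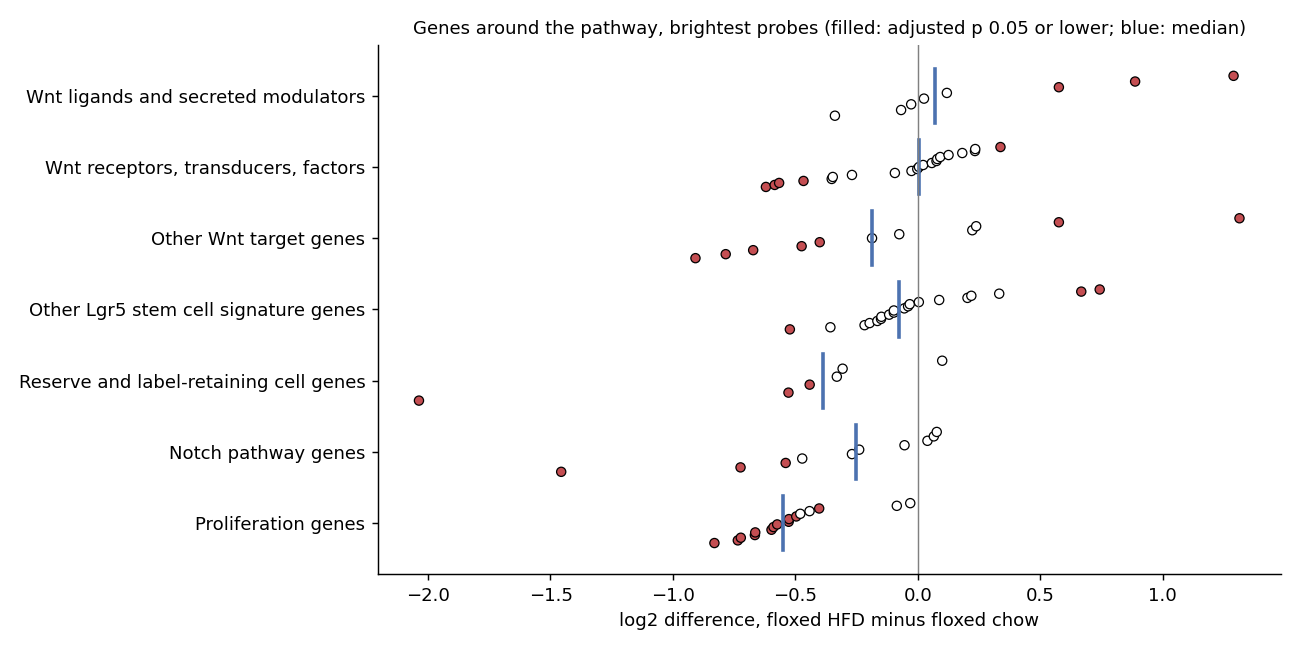
Diet difference (floxed HFD minus floxed chow, log2, horizontal axis) of the genes tested in 7 lists, 1 point per gene at its brightest probe; filled points have an adjusted p of 0.05 or lower and blue bars are medians. The proliferation genes lie at or below -0.03 with a median of -0.55, while the ligand list has a median of 0.07.

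Markers of other cells moved with diet, where 10.4% of all genes were called higher and 14.2% lower. All 5 B cell markers were lower on HFD, from Cd79b (-2.60) to Cd79a (-0.47), with a median of -1.95, and their summed linear signal ranged from 607 to 3493 in floxed chow, 214 to 1169 in floxed HFD and 350 to 827 in iPGC1a-/- HFD. Of 6 T cell markers, 5 were lower, down to Cd8a (-1.76), and Cd4 was higher (0.62). All 7 goblet cell markers tested were lower, from Agr2 (-1.10) to Tff3 (-0.54). Of 10 villus enterocyte markers, Apoa4 (0.98) and Alpi were higher and Slc10a2 (-1.07) was lower. Of 6 Paneth cell markers tested, 2 were lower, with Pla2g2a the lowest (-0.97), and the highest, Ang4, differed by 0.58 (adjusted p = 0.0837 in limma). None of 5 fibroblast markers (-0.10 for Col1a2 to 0.07 for Dcn) and 6 smooth muscle markers (-0.12 for Cnn1 to 0.41 for Myh11) passed limma's test for diet. The mean of Myh11 rested on 1 floxed HFD array at 9.73, where the median was 5.28 in floxed HFD and 5.62 in floxed chow. Of 4 tuft cell markers tested, Trpm5 was lower (-0.63) and the highest, Dclk1, differed by 0.40 (adjusted p = 0.116 in limma). Of 8 enteroendocrine markers, Nts was higher (0.98) and Chga lower (-0.80). Of 4 enteric neuron and glia markers tested, 1 passed and was higher. They ran from 0.19 for Elavl4 to 0.60 for Uchl1 (adjusted p = 0.15 in limma). Of 4 macrophage and dendritic cell markers tested, 2 were lower, with Itgax the lowest (-0.82) and C1qb the highest (0.14). The 1 endothelial marker tested, Pecam1, differed by 0.12. Between genotypes, 0 markers in these lists passed limma's test. The part of these cells in the crypt, Wnt, stem cell signature, reserve, Notch and proliferation results was not tested.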

How the data were processed

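Ileal cells of 18 mice were measured on Agilent SurePrint G3 mouse arrays, 6 per group, on 3 slides with 2 arrays of each group per slide. The authors deposited spot intensity values from Feature Extraction 10.10.1.1, not normalized between arrays, and a table of log2 values for 33095 probes. That table matched the scanner values in direction and scale (column medians 7.44064 to 7.44465, slope of array deviations 0.995); its centring is not given in the sources used here. The washing bath and labelling serial that the authors corrected for are not in the labels, so that step was not repeated. 

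Control and outlier spots were left out, spots of a probe averaged, and a probe was kept where 5 or more of the 6 arrays of any group had it well above background (32726 of 56605). Log2 median signals went through qsmooth, re-implemented here (window 0.05), and were tested with limma 3.58.1 in R 4.3.3, all 3 groups in one model, with Benjamini-Hochberg adjustment over the kept probes. Confidence intervals are at 95%. Correlations used 100000 permutations in numpy 2.4.6, with ranks from scipy 1.17.1. The number of arrays and signal over background limit the precision, with a median SE of 0.105 on the log2 scale. The code was tested on simulated data.

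The crypt genes, pathway lists and tests were chosen with earlier results of these data known. All 10 crypt genes are named, with up to 3 genes in each direction per pathway list by size of difference among those past the test, the highest and lowest of a marker list, and the 3 genes most like Lgr5 and Olfm4. Alpi, Fabp2 and Slc5a1 fall outside this rule and were named after their values were seen. Alternatives were the background-subtracted or median signal scaled to the 75th percentile, normexp with an offset of 50, quantile normalization, the authors' log2 table, no or a strict filter, slide or replicate number as a block, only the groups compared, a trended robust variance, averaged probes, a 1.5-fold threshold and each array left out.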

Additional observations from a re-analysis of the deposited data

Results flagged for a closer look

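In 30 sets of 6 arrays (10 genes in 3 groups), 2 held an array whose gap to its nearest neighbour exceeded Dixon's 95% critical value for 6 samples, and chance flags about 1 set in 20. Both were Sox9 at its brightest probe. Floxed HFD replicate 2 had a log2 signal of 5.8931, where the next lowest array had 9.3147 (0.7636 of the range). Floxed chow replicate 3 had 10.499, where the next highest had 9.8002 (0.717 of the range).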

How the results depend on the processing

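The number of arrays, the signal over background and the choice of probe limited the results on the crypt genes. Prom1 and Msi1 passed for diet in all 13 alternative fits and in all 18 fits without 1 array, and Axin2, Olfm4 and Prom1 did so between iPGC1a-/- HFD and floxed chow. For genotype, 0 crypt genes passed in every alternative run. The diet count was 0 and the count between iPGC1a-/- HFD and floxed chow was 0 when more than 1.5-fold was also required in the fit used for the results above. Otherwise the diet count was 2 to 4 and the other 3 to 5. The 1.5-fold rule was not applied to the other fits. With the background-subtracted signal, Prom1 was -1.05 for diet (adjusted p = 0.000177 in limma). For iPGC1a-/- HFD against floxed chow it was -0.96 (adjusted p = 0.000288 in limma). Without 1 array, the counts were 2 to 3 for diet, 0 for genotype, and 3 to 4 for iPGC1a-/- HFD against floxed chow. Same-numbered arrays had correlations of -0.22 to 0.35, so the numbers were not taken to pair mice. With the replicate block 4, 0 and 4 genes passed, Lgr5 for diet being the one gained (adjusted p = 0.0326 in limma), and with the slide as a block 3, 0 and 3.

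Signs turned for the differences below, none past the test at the brightest probe, and the cause was not tested. Smoc2 for diet is the one of them that passed in another fit, with its probes averaged (-0.35). With probes averaged, Rnf43 was 0.0408 for diet, -0.0243 for genotype and 0.0165 for iPGC1a-/- HFD against floxed chow, Sox9 was -0.00046 for genotype, and Msi1 was -0.0172 for iPGC1a-/- HFD against floxed chow. With scaling of the median signal to the 75th percentile, Prom1 was -0.0373 for genotype and Rnf43 was 0.0057 for iPGC1a-/- HFD against floxed chow. With the share of spots well above background as a covariate, chosen after seeing the data, Smoc2 was 0.15 and Rnf43 0.0521 for diet, Rnf43 was 0.0612 for iPGC1a-/- HFD against floxed chow, and the counts were 3, 0 and 3. Without 1 array, Ascl2 ranged from -0.0423 to 0.21 for diet. For genotype, Prom1 ranged from -0.0169 to 0.0551, Rnf43 from -0.0270 to 0.0783, Smoc2 from -0.18 to 0.0244 and Sox9 from -0.49 to 0.40. For iPGC1a-/- HFD against floxed chow, Rnf43 ranged from -0.0849 to 0.0240. Proliferation genes past the test for diet numbered 8 to 14 without 1 array, and 7 for diet and 6 for iPGC1a-/- HFD against floxed chow past 1.5-fold.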
